A study of Mus musculus with 2 samples.

Results

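The genes described here are 7 transcription factor genes of forebrain patterning and neuronal identity, Otx1, Cux2, Lhx2, Pax6, Meis1, Nr2f2 and Nfix, together with Dlx6as1, the long non-coding RNA gene antisense to the homeobox gene Dlx6. All distinct regions with a line carrying one of these symbols were taken from the authors' table of differing regions, which gave 12 of the 276 listed regions. The table comes from reduced representation bisulfite sequencing (RRBS) of mouse hippocampal DNA, a method that cuts DNA with MspI at CCGG and reads the methylation of cytosines in CpG sites near the cuts. The choline library (F1m-GCS) represents offspring whose dams were fed 5 g/kg choline chloride, starting on embryonic day 9 and ending at birth. The control library (F1m-CON) represents offspring whose dams were fed 1.1 g/kg. All offspring ate a basal diet after birth and entered behavioural tests at 2 months of age. The strain and the number of animals in a library were not stated in the labels.

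Each diet had 1 library. There was no spread between animals to set a difference against, and the members were chosen by the methylation levels themselves, since the authors listed regions where these same libraries differed. The values below are therefore a description of 2 libraries, without a test of the diets. No listed region differed by less than 10 percentage points.

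Homeobox genes encode factors that bind DNA through a homeodomain and divide the early forebrain into fields, and several of them stay active in adult neurons as part of a neuron's identity. Methyl groups on CpG sites are copied at cell division by maintenance methylation, and starts of developmental regulators usually lie in CpG-rich DNA that carries few of them. In hippocampus, Lhx2 is required for the structure to form, Pax6 and Nfix act in its neural progenitors, and Nr2f2 and the Dlx genes mark groups of inhibitory interneurons.

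Sequence around the listed regions could not be read, because their coordinates are not those of the reference genome, GRCm38 (mm10). The submitters' processing notes name mm9 as well as mm10, and no mm9 genome was used here to check them. The 250 bases before a RefSeq start (GRCm38.p6) are shown for the 2 transcription factor genes with a listed region in the first intron behind a start of the RefSeq promoter table. Introns were matched by length. Capitals mark CpG sites, the dinucleotides whose methylation RRBS measures. For Lhx2 (plus strand, chr2:38351058-38351307) the start is that of the RefSeq transcript with a first exon of 586 bp and a first intron of 1417 bp, as in the table. For Nr2f2 (minus strand, chr7:70366747-70366996) it is that of the transcript with a first intron of 7802 bp. The listed regions of both genes lie outside these bases.
Lhx2: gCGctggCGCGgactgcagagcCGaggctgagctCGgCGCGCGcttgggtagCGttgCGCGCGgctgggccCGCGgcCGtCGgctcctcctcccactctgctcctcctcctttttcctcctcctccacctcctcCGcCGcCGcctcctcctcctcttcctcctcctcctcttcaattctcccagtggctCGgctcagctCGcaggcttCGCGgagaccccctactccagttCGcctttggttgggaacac
Nr2f2: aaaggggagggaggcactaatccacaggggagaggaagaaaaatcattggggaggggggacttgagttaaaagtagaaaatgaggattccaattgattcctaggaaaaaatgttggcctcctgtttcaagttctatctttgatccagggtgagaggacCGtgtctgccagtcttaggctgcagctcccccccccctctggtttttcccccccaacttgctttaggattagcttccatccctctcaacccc
The Lhx2 stretch held 24 CpG sites and the Nr2f2 stretch 1. Neither contained CCGG (MspI site, the same on both strands). In all, 7 of the 8 genes, all but Otx1, matched 14 RefSeq windows of 300 bases (250 before to 50 after a start). The median number of CpG sites was 11 in these windows and 7 in all 32851 RefSeq windows. CCGG occurred in 8 of the 14 windows (57.1%) and in 52.8% of all windows.

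At 10 of the 12 regions the choline library was more methylated, and at the first of 2 Lhx2 regions and the Meis1 region it was less methylated. That is a share of 83.3%, beside 73.6% of all 276 listed regions, and since the same contrast chose the regions nothing is read from the difference. Differences had a median size of 14.8 percentage points (range 10.1 to 30.5), beside 12.5 over all listed regions. Median levels were 22.1% (control) and 28.3% (choline), against 15.9% and 20.1% over all listed regions. An intron was touched by 10 of the 12 regions and by 58.0% of all listed regions. The regions were 30 to 183 bp long with 5 to 15 CpG sites as listed, and their median density of 7.78 CpG sites per 100 bp lay beside 8.92 over all listed regions. In a tissue sample a change in the mix of cells and a change within cells cannot be told apart.

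**Figure D1:**
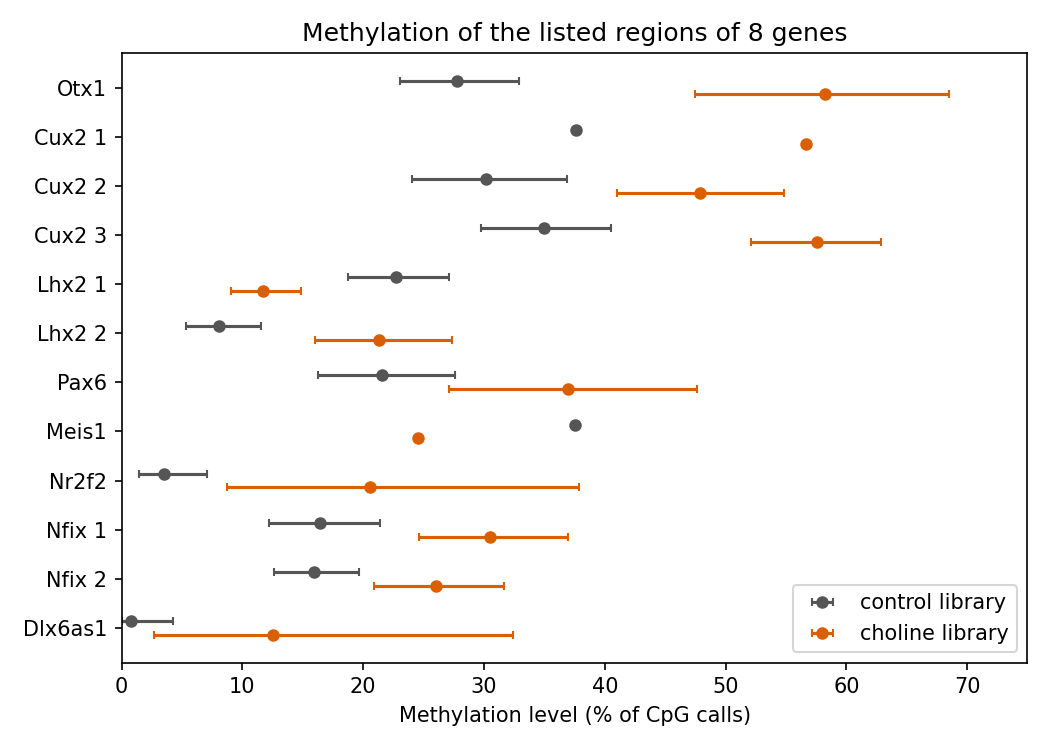
Methylation level in percent of CpG calls (x axis) at the 12 regions, numbered by position where a gene has several, in the control (grey) and choline (orange) library. Bars are exact 95% intervals for counting error, and the first Cux2 region and Meis1 have none because their listed number of CpG sites, and so their number of calls, is in doubt. The choline library lies to the right at 10 regions and to the left at Lhx2 1 and Meis1.

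Among the genes that pattern the forebrain, Otx1 had the largest difference of all 276 regions. Otx1 encodes a homeodomain factor of the orthodenticle family that acts in cortical development. Its region (chromosome 11, 21900555 to 21900736, 9 CpG sites) lay 388 to 569 bp into an intron of 1536 bp, the length of the second of 4 introns of the RefSeq transcript. In the control library 93 of 335 calls were methylated, or 27.8% (exact Clopper-Pearson 95% interval 23.0 to 32.9). In the choline library it was 53 of 91 calls, or 58.2% (47.4 to 68.5), which is 30.5 points more. The depth was 37.2 reads per CpG site in the control library against 10.1 with choline.

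Pax6, a paired-box and homeodomain factor of dorsal forebrain progenitors, had its region upstream of the gene (chromosome 2, 105507657 to 105507838, 6 CpG sites). It lay 1215 to 1396 bp before the start given by the table, and inside an intron of the antisense gene Pax6os1. The control library had 47 of 218 calls methylated, 21.6% (16.3 to 27.6), and the choline library 34 of 92 calls, 37.0% (27.1 to 47.7). The difference was 15.4 points, and the intervals overlapped slightly. With 3.30 CpG sites per 100 bp this was the sparsest of the 12 regions.

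Lhx2, a LIM-homeodomain factor that selects cortical fate, had 2 regions 3949 bp apart that differed in opposite directions. The first (chromosome 2, 38207814 to 38207945, 11 CpG sites) lay 400 to 531 bp into the first intron and 986 to 1117 bp after the start. Its control level was 22.7% (93 of 409 calls, 18.8 to 27.1) and its choline level 11.7% (59 of 504 calls, 9.03 to 14.8), a difference of -11.03 points. The second (chromosome 2, 38211894 to 38212009, 15 CpG sites) lay in an intron of 5045 bp, the length of the third of 4 introns in RefSeq. There the control level was 8.05% (26 of 323 calls, 5.33 to 11.6) and the choline level 21.3% (46 of 216 calls, 16.03 to 27.4), a difference of 13.2 points. The order of the 2 regions thus turned over: the one near the start was the more methylated in the control library and the less methylated in the choline library. With reads in place of calls as the unit (the mean depth standing for their number), the interval of the difference was -27.5 to 5.15 points at the first. At the second it was -10.96 to 39.3. Both included 0, as did those of all 12 regions but Otx1, and they are no test of either direction. The first region was the deepest of the 12 in the choline library, at 45.8 reads per CpG site.

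Meis1 encodes a homeodomain factor of the TALE class that binds DNA together with Pbx and Hox proteins. Its region (chromosome 11, 18916099 to 18916223, 9 CpG sites) crossed the edge of a coding exon, with 88 bp in coding sequence and 37 bp in the following intron. The control level was 37.5% and the choline level 24.5%, a difference of -13.0 points. The listed number of sites is in doubt: with 9 sites the depths give no whole number of calls, while 13 sites give 54 of 144 methylated calls in the control and 52 of 212 with choline. Those calls do not give the authors' deposited p, so no interval was made from them. At 11.1 reads per CpG site the control depth was the lowest of the 12 regions.

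Of the genes tied to inhibitory interneurons, Nr2f2 encodes an orphan nuclear receptor (COUP-TFII) found in interneurons from the caudal ganglionic eminence. Its region of 30 bp with 5 CpG sites (chromosome 7, 77505859 to 77505888) was the densest of the 12, at 16.7 sites per 100 bp. It lay 380 to 409 bp before one start of the gene and 5090 to 5119 bp into the intron of 7802 bp of a longer transcript. Methylated calls numbered 7 in each library, out of 201 in the control (3.48%, 1.41 to 7.04) and 34 in the choline library (20.6%, 8.70 to 37.9), a difference of 17.1 points. The depths were 40.2 and 6.80, so the same number of methylated calls stood against 5.91 times the depth in the control library. The nearest listed region of another gene lay 8.71 kb away in an intron of B130024G19Rik, named here after its values were seen, and went the other way. Its control level was 21.6% and its choline level 5.77%, with depths of 10.2 and 10.4.

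The region listed under Dlx6as1 (chromosome 6, 6813590 to 6813631, 6 CpG sites) lies in coding sequence of Dlx6, a homeobox gene of interneuron development, 256 to 297 bp after its start. Dlx6as1, now Dlx6os1 and also called Evf2, is transcribed across Dlx6 from the other strand and has the region in an intron of 44741 bp. The lines also name Dlx6as2, on the same strand as Dlx6as1, with the region 166 to 207 bp downstream of its end. Methylation does not tell which of the overlapping genes a region belongs to. In the control library 1 of 130 calls was methylated, 0.769% (0.0195 to 4.21), and in the choline library 3 of 24, 12.5% (2.66 to 32.4). The difference was 11.7 points, the intervals overlapped, and the choline depth of 4 was the lowest of the 12.

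Cux2 had the most regions of these genes, and all 3 were more methylated in the choline library. It encodes a cut-homeobox factor of upper-layer cortical neurons with a known part in dendrite growth. Of the 3, 2 lay in the intron of 118854 bp, which matches the second of 22 introns in RefSeq. Nearest to its 5′ end, 723 to 793 bp in, the region at chromosome 5, 122492985 to 122493055 (9 CpG sites) had 112 of 320 control calls methylated, 35.0% (29.8 to 40.5). In the choline library it had 198 of 344, 57.6% (52.1 to 62.8), a difference of 22.6 points at depths of 35.6 and 38.2.

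The other Cux2 regions held similar levels. At chromosome 5, 122408532 to 122408628 (8 CpG sites), 84357 bp from the region just described, the control level was 30.1% (63 of 209 calls, 24.0 to 36.9). The choline level was 47.9% (102 of 213 calls, 41.0 to 54.8), a difference of 17.7 points at depths of 26.1 and 26.6. A coding region at chromosome 5, 122323963 to 122324145 (12 CpG sites) had a control level of 37.7% and a choline level of 56.6%, at depths of 28.1 and 15.6. Its listed number of sites is in doubt too, since 14 sites and not 12 give whole calls (148 of 393 in the control and 124 of 219 with choline), again without matching the authors' deposited p. Across the 3 regions control levels spanned 30.1% to 37.7% and choline levels 47.9% to 57.6%. The intron regions are the cases among the 10 more methylated regions in which the choline library was the deeper one.

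Nfix encodes a nuclear factor I protein, a DNA-binding factor without a homeodomain that promotes the maturation of hippocampal progenitors. Its 2 regions, 77072 bp apart, had nearly the same level in the control library. The one in the 3′ UTR (chromosome 8, 87231971 to 87232113, 8 CpG sites), 473 to 615 bp before the transcript's end, stood at 16.4% (44 of 268 calls, 12.2 to 21.4) in the control library. In the choline library it stood at 30.5% (69 of 226 calls, 24.6 to 37.0), a difference of 14.1 points. The other lay in an intron of 27682 bp, the length of the first intron in some of the 16 curated RefSeq transcripts. This region (chromosome 8, 87309185 to 87309348, 12 CpG sites) stood at 15.9% (71 of 446 calls, 12.6 to 19.7) and 26.0% (70 of 269 calls, 20.9 to 31.7), a difference of 10.1 points. That is the smallest of the 12 differences, just above the lowest of the whole list. Both Nfix regions had more than 20 reads per CpG site in each library, with depths of 33.5 and 28.3 in the 3′ UTR and 37.2 and 22.4 in the intron.

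**Figure D2:**
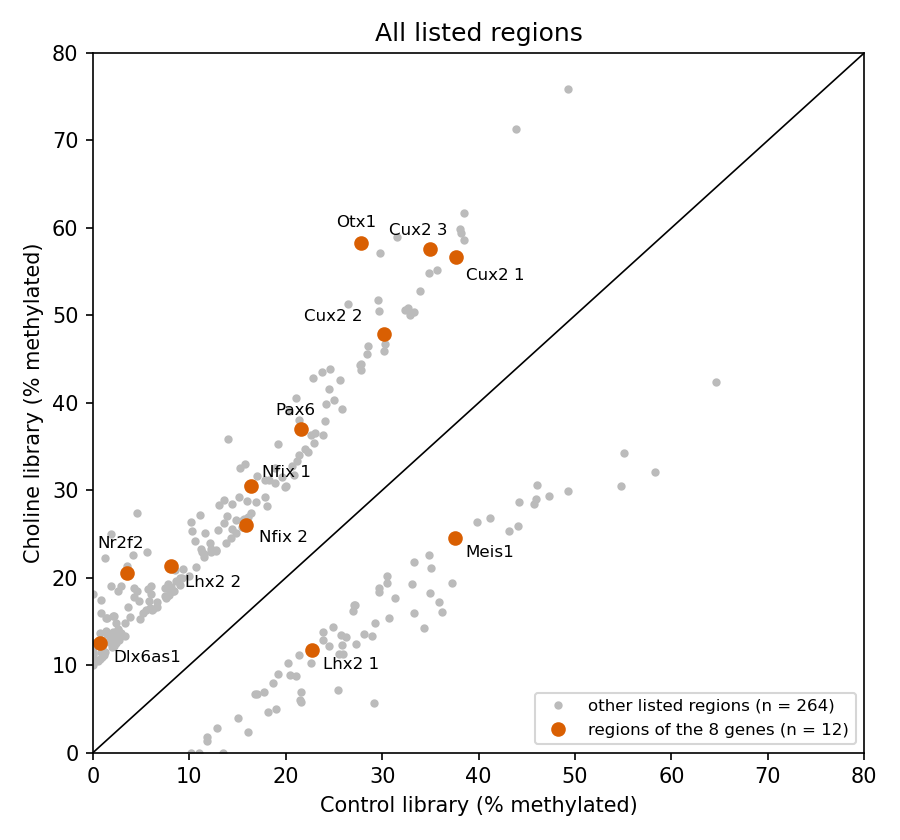
Methylation level in the control library (x axis, percent) against the choline library (y axis, percent) for all 276 listed regions, with the 12 regions of the 8 genes in orange and the line of equal levels. The empty band along the line holds differences below 10 points, which the list does not contain, and Otx1 lies farthest from the line.

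Depth differed between the libraries. The control library was deeper at 8 of the 12 regions, and all 8 were more methylated in the choline library. At the 4 regions with more depth in the choline library, 2 (Cux2) were more methylated there and 2 (Lhx2 and Meis1) less. Over all listed regions the share more methylated in the choline library was 75.2% of 218 with more control depth and 66.7% of 57 with more choline depth. The part of depth in these differences was not tested. Nr2f2 and Dlx6as1 were the regions under 10 reads per CpG site in the choline library. The control depth was at least 10 at all 12 regions.

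**Figure D3:**
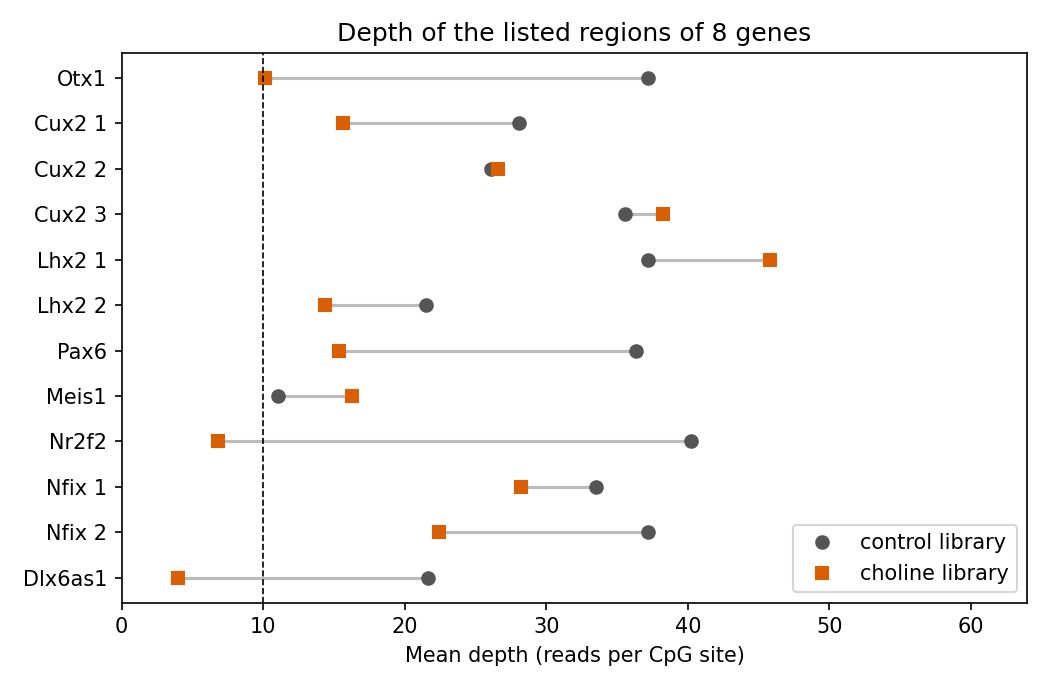
Mean depth in reads per CpG site (x axis) of the 12 regions in the control (grey circles) and choline (orange squares) library, joined by a line, with a dashed line at 10. Otx1, Pax6, Nr2f2 and Dlx6as1 show the widest gaps relative to the choline depth, and Cux2 2 and Cux2 3 nearly equal depths.

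How precisely a difference was measured depends on the unit of counting, since CpG calls on the same read are not independent. On calls, the 95% interval of the difference (Newcombe's score method) was 19.1 to 41.1 points at Otx1, 15.02 to 29.7 at the Cux2 region near the intron's 5′ end and -16.02 to -6.13 at the first Lhx2 region. With the mean depth, rounded, standing for the number of reads, the intervals became 0.110 to 58.9, -0.859 to 41.5 and -27.5 to 5.15. All but Otx1 of the 12 intervals on reads included 0, and Otx1's lower bound lay next to it. The same count was not made over all listed regions, so nothing particular to these genes is read from it. Rounding to 10 of 37 control reads and 6 of 10 choline reads raised the Otx1 difference from 30.5 to 33.0 points. Whether its interval includes 0 therefore depends on the rounding. At Dlx6as1 no methylated read remained after rounding in either library (0 of 22 and 0 of 4), although the choline library had 3 methylated calls. Its 12.5% of 4 reads lies midway between 0 and 1 and was rounded down. Mean depth only stands in for the number of reads. The regions were listed for these same differences, so neither the intervals on calls nor those on reads test any of them against 0.

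**Figure D4:**
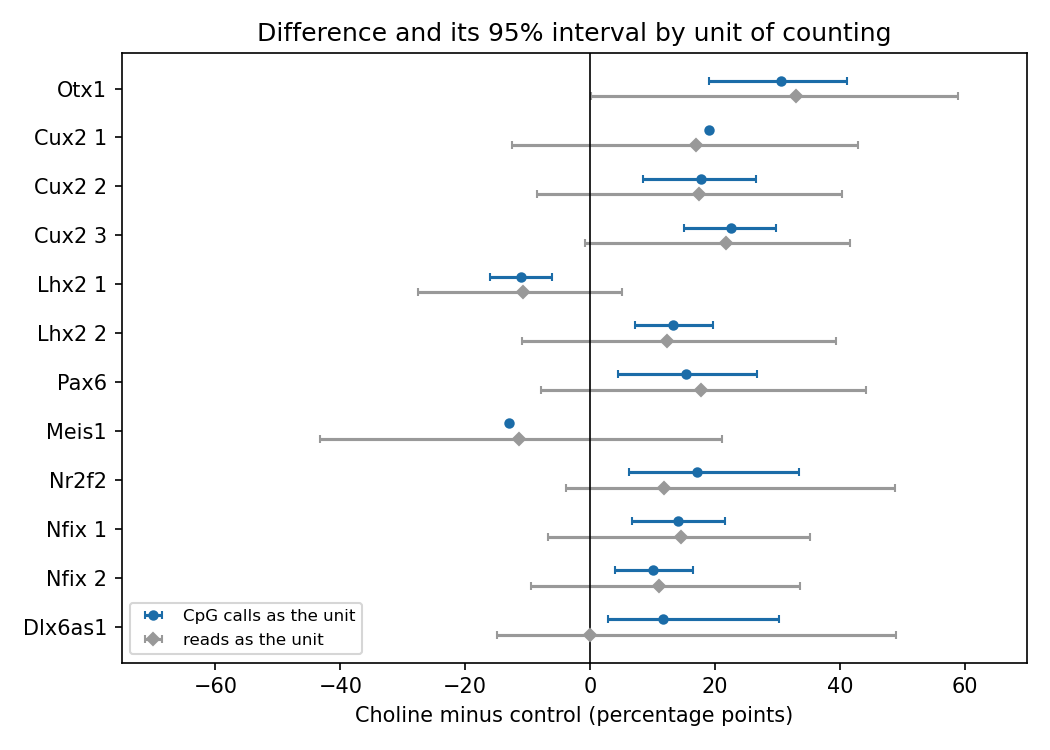
Difference between libraries in percentage points (x axis, choline minus control) at the 12 regions, with 95% Newcombe intervals on CpG calls (blue) and on reads (grey). The first Cux2 region and Meis1 have no interval on calls. On calls all 10 intervals lie to one side of 0. On reads only that of Otx1 does, from 0.110 points, after rounding raised its difference from 30.5 to 33.0 points. The regions were listed for these same differences, so neither set of intervals tests them against 0.

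Promoter lines of the table need care at these genes, of which 6 of 8 lie on the minus strand. Promoter lines span 1000 bp to each side of a centre. On the plus strand 54 of 84 distinct promoter lines were centred within 1 bp of a start that other lines of the table give, and none on a gene's end. On the minus strand 0 of 15 were centred on such a start and 11 on a gene's end. Of pairs of a region and a gene whose given start lay within 1000 bp, 37 of 37 on the plus strand and 1 of 31 on the minus strand had a promoter line. Nfix is a case in point: its promoter line is centred at 87231498, the end of its 3′ UTR, so that region is not near the start of Nfix. Nr2f2 is the opposite case, with no promoter line 380 to 409 bp before a start. Of the 12 regions, those of Lhx2 (the first) and Dlx6 have a promoter line drawn around a start. The Dlx6 region also has a promoter line of the minus-strand gene Dlx6as2, centred at 6813797, that gene's end.

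Other genes of the same kind were looked up. Of 150 genes in 10 lists of forebrain transcription factors (LIM, OTX and EMX, PAX, DLX, CUT and POU, TALE, orphan receptors, nuclear factor I, bHLH factors and cortical identity genes), 12 had a listed region. These were the 8 genes above, Dlx6 through the shared region, and 3 more with 1 region each. Without the 8 genes, which were taken because they have a region, it is 4 of 142 (2.82%). The whole table names 296 symbols, and how many genes were covered is not known here. Bcl11b, a zinc finger factor of deep-layer neurons, had a control level of 5.98% and a choline level of 18.2%, at depths of 33.4 and 6.29. Onecut2, a CUT-homeobox factor, stood at 20.3% and 10.2%, and Dmrta2, a factor of the dorsal midline, at 23.9% and 13.8%. None of the 17 bHLH genes, which include Neurog2 and Neurod1, had a region. Lists of 26 neuronal and glial markers had 2 genes with a region, Rbfox3 of neurons (17.2 points higher in the choline library) and Aldh1l1 of astrocytes (27.4 points higher). The part of cell mix in the members' differences was not tested, and a list of differing regions gives no check of the labelled tissue.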

How the data were processed

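The data are 1 deposited table comparing 2 RRBS libraries of mouse hippocampus, with columns matched to libraries by sample titles. Per the labels' protocols, DNA was cut with MspI, size-selected and bisulfite-treated. Reads were trimmed with cutadapt and aligned with SOAPaligner 2.21, per the series' design text. The submitters' processing notes also list CASAVA 1.8. Neither source states the region caller or its thresholds. The deposited fraction is the methylated share of CpG calls, and the deposited coverage is the mean read depth per CpG site. The deposited p-values were used only to check calls recovered with a number of sites other than the listed one.

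The table's 725 lines were reduced to 276 regions. Promoter symbols that lack letters were restored from other lines of the same region. Fraction, depth and CpG number gave whole calls (tolerance 1e-06) at 259 regions, 10 of the 12 among them. At the other 17 regions another number of sites than the listed one made the calls whole, but Fisher's exact test on those calls matched the deposited p within 1% at 0 of the 17, so those calls were not used. Clopper-Pearson and Newcombe 95% intervals cover counting error only, since each group had 1 library. The libraries carry no stated molecular identifiers, so repeated reads of the same molecule may be counted more than once. The interval code was tested on simulated independent calls, a setting without calls that share a read and without the rounded counts on reads. Coordinates are printed as deposited: 1 region of chromosome 7 ended at 148524799, past the GRCm38 length of 145441459, so they are not mm10. The submitters' processing notes name mm9 and mm10, and mm9 was not tested here. Introns were compared with RefSeq GRCm38.p6 by length alone, over curated transcripts, and all 8 deposited introns of these genes had an equal in RefSeq. The text names the 8 genes, genes sharing their regions and other listed genes of the lists. Members and lists were chosen with earlier results of these data known. Alternatives were coverage, CpG number, size of difference, whole calls, merging, regions that name no other gene, genes as the unit, and reads as the unit. SciPy 1.17.1 and pandas 2.3.3 were used.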

Additional observations from a re-analysis of the deposited data

How the results depend on the processing

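The share of the 12 regions more methylated in the choline library (83.3%) and the median difference (14.8 points) ranged from 60% to 100% and from 12.1 to 18.4 points under the alternatives run. The regions are few, share genes and were chosen by this contrast, so these ranges say nothing about stability. With a minimum difference of 15 points the share was 100% (6 regions), since the 2 less methylated regions differ by less. Of the 3 genes with several regions, 2 (Cux2 and Nfix) had all regions in one direction. This count was 0 with at least 10 CpG sites, where Lhx2 alone of the 3 has more than 1 region, and 1 at 15 points. Meis1 has 13 sites in place of 9 if its calls are to be whole. With that number, an alternative chosen after seeing the data, 3 of 5 regions with at least 10 CpG sites were higher (60%, beside 3 of 4, or 75%), the count of genes was again 0 and 5 regions were left. The regions left with their direction numbered 4 of 12 at 10 CpG sites and 6 at 15 points, by the smaller number of regions in each. With reads as the unit they numbered 11, since rounding to 0 methylated reads left Dlx6as1 without a difference. Merging regions within 1000 bp joined none. No paired analysis was possible because each group had 1 library, and for the same reason no library could be left out.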
